A study of Drosophila melanogaster with 4 samples.

Results

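Broad domains of Ser5-phosphorylated RNA polymerase II are described here, defined as enriched regions at least 10 kb wide on the chromosome arms in the authors' combined region list. Of 5074 enriched regions in that list, 4830 lay on the 6 arms 2L, 2R, 3L, 3R, X and 4, and 303 of these were domains. The members were therefore picked by their width in this list, and widths and scores of the same list are given as a description with no test. Chromatin came from Kc167 cells, a female line derived from late embryonic Drosophila melanogaster with the genotype se/e, which was grown in flasks, pooled and fixed with 1.8% formaldehyde for 10 min. No treatment is named in the labels. The series held 2 ChIP libraries, made with the rabbit polyclonal antibody ab5131 against the phosphorylated repeat, and 2 libraries of input DNA from the same line. No input region list is analysed here, no read counts were at hand and the depth of the libraries is unknown. Positions are those of FlyBase release 5. The gene table at hand belongs to release 6, and positions cannot be carried over to it. The domains are therefore named by position, no genes are assigned to them, and the cell line was not checked against marker genes.

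The largest subunit of RNA polymerase II ends in a tail of repeated heptads. The kinase of the general factor TFIIH phosphorylates serine 5 of the repeats as transcription starts, the mark helps to recruit the mRNA capping enzyme, and it is typically strongest near the promoter and in the first part of a gene. The polymerase of many fly genes also pauses shortly after the start site. In the compact fly genome a wide called region can cover a long gene or several neighbouring genes, and the lists do not tell these apart. The word domain is used here only for the width of a called region.

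Domains were few but held a large share of the polymerase-rich DNA. They made up 6.27% of the enriched arm regions and 22.2% of their bases, or 4.42 Mb out of 19.9 Mb, and they covered 3.67% of the arms. Their median width was 13.3 kb, with quartiles of 11.1 and 16.6 kb. Most were only moderately wide: 112 were under 12 kb, 87 were from 12 to 15 kb, 68 from 15 to 20 kb and 36 were 20 kb or more. Only 2 exceeded 30 kb.

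Each replicate list held fewer such regions than the combined list. Replicate 1 had 209 and replicate 2 had 228 regions of at least 10 kb on the arms, a mean of 218.5 ± 13.4 (SD, n = 2). These covered 2.57% ± 0.157 of the arm bases and 17.1% ± 0.818 of the enriched arm bases (SD, n = 2). Their median widths of 12.9 kb in both replicates lay close to the 13.3 kb of the combined list.

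**Figure D1:**
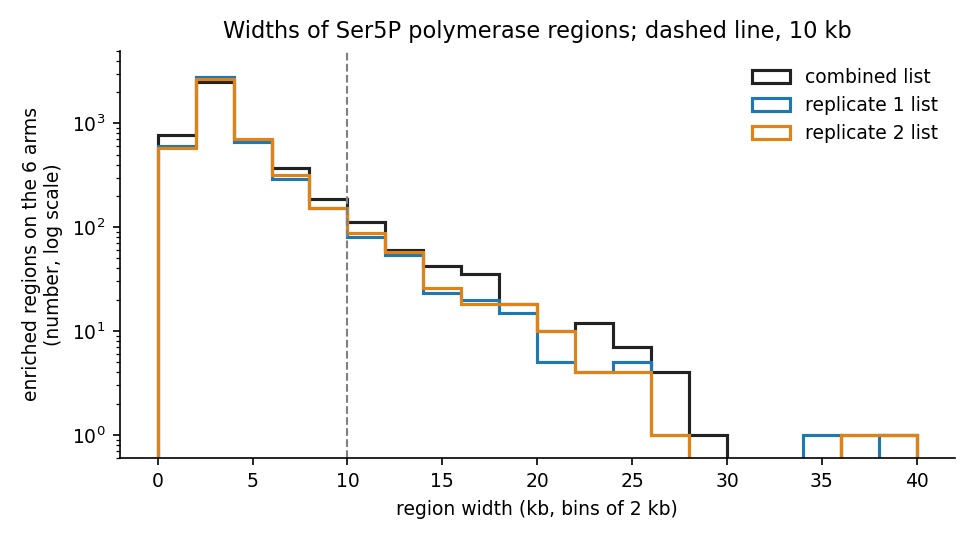
Number of enriched regions on the 6 arms (log scale) by width in bins of 2 kb, for the combined list and for each ChIP replicate list. The combined list lies above both replicates in most bins past the dashed line at 10 kb, with 303 domains against 209 and 228.

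The cutoff of 10 kb fell within a continuous run of widths. Just inside it were regions of 10017 bp on 3L at 3156492 to 3166508, of 10019 bp on X at 8601916 to 8611934 and of 10027 bp on 2L at 11984070 to 11994096, with combined scores of 1.32, 2.503 and 1.31. Just outside it were regions of 9983 bp on 2R at 18685544 to 18695526, with a score of 1.94, and of 9971 bp each on 2L at 10001332 to 10011302 and on 3L at 16777464 to 16787434, with scores of 1.53 and 1.12. The score is the authors' own and was read as a log2 value, so that a step of 1 stands for a factor of 2. Its reference level is unknown, and scores were compared only within a list.

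The 10 widest domains fell into those that both replicates held whole and those that both divided. Whole means here that a single replicate region overlapped the domain, which may leave part of it uncovered. The widest of all lay on 3R at 1096068 to 1135102, was 39.0 kb wide and scored 1.47. Replicate 1 held it as a single region of 38.9 kb with a score of 1.40, and replicate 2 as a single region of 39.1 kb with a score of 1.53. The second, on 3R at 7414148 to 7450476, was 36.3 kb wide with a combined score of 1.76. It too was a single region in each replicate, with scores of 1.75 and 1.78. Both scored below the domain median of 1.96 and were held in a single piece throughout.

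Of the other wide domains, 4 more were whole in both replicates, and all of them lay on 3R. These were 19114380 to 19141286 (26.9 kb, combined score 2.04), 26590526 to 26615966 (25.4 kb, 1.90), 19834028 to 19859006 (24.98 kb, 2.06) and 24142692 to 24167530 (24.8 kb, 2.15). Their replicate 1 scores were 2.01, 1.85, 2.04 and 2.08, and their replicate 2 scores 2.07, 1.94, 2.15 and 2.21. On 2L the widest domain, at 8217122 to 8241030, was 23.9 kb wide with a combined score of 1.68, and it was also whole in both replicates with scores of 1.66 and 1.70.

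The remaining 4 of the 10 widest were divided in both replicates, and none of them lay on 3R. On 2R, the 28.4 kb domain at 14012020 to 14040438 carried a combined score of 2.14. Its 3 replicate 1 regions scored 1.90, 2.32 and 2.28 from left to right, and its 3 replicate 2 regions 1.73, 2.45 and 1.28. The left gaps of the replicates overlapped but the right gaps did not, and the widest part ran from 14025355 to 14040324 in replicate 1 and from 14019181 to 14036501 in replicate 2.

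On X, the 27.7 kb domain at 8767090 to 8794788 scored 1.37 in the combined list and consisted of a strong right part beside weak shoulders. In replicate 1 the region from 8777601 to 8794625 scored 1.74, and the 2 regions left of it scored 0.58 and 0.54. A further replicate 1 region with a score of 1.27 began at 8794786, inside the last bases of the domain, and ran beyond its edge. In replicate 2 the right part from 8781468 to 8794767 scored 1.91, and the 4 regions left of it scored 0.58, 0.37, 0.62 and 0.32. The strongest part lay on the right side of this domain in both replicates, and the left side was weak in both.

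The 27.6 kb domain on 3L at 19884752 to 19912372 scored 1.26 and was cut in 2 in both replicates, but at different places. Replicate 1 split off a right part of 5.13 kb with a score of 1.59 from a left part of 19.97 kb with 1.20. Replicate 2 split off a left part of 3.68 kb with a score of 0.55 from a right part of 20.5 kb with 1.49. The last of the 10, on 2R at 10367642 to 10394536, was 26.9 kb wide, scored 1.27 and was held as 4 regions in replicate 1 and 5 in replicate 2. Both replicates had their strongest parts at its ends, with scores of 1.54 on the left and 1.44 on the right in replicate 1, and 1.57 and 1.58 in replicate 2. The parts between scored 0.42 and 1.12 in replicate 1, and 1.32, 0.66 and 0.79 in replicate 2.

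**Figure D2:**
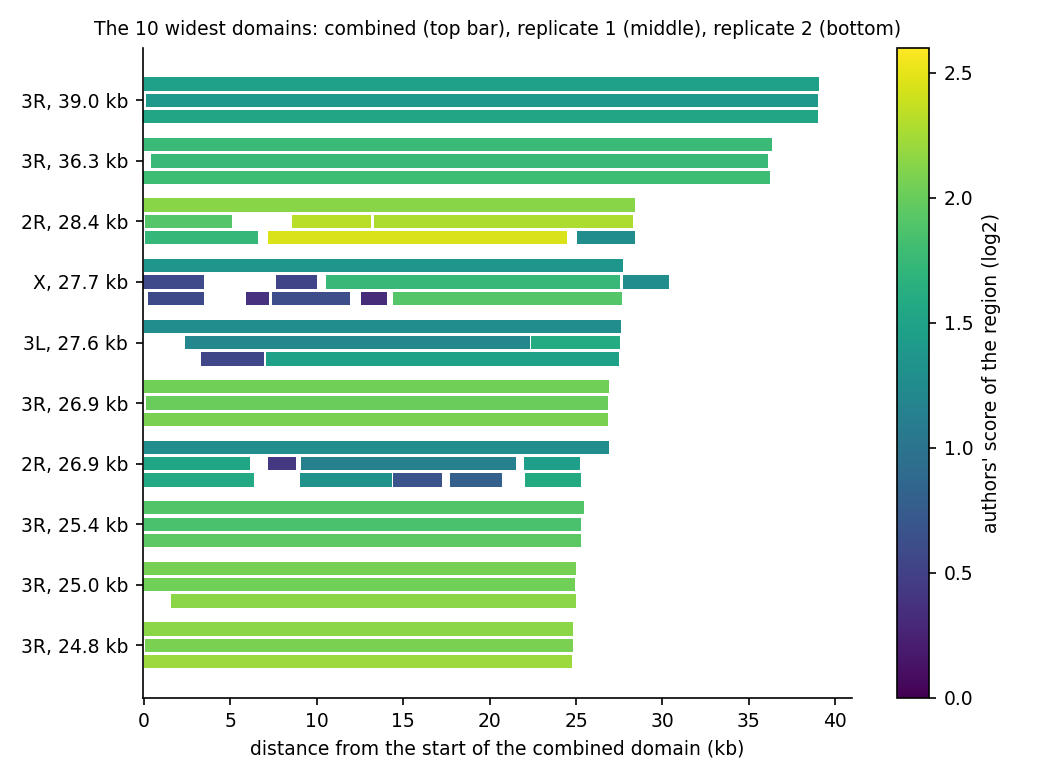
The 10 widest domains drawn to scale from the start of each combined domain (kb), with the combined region as the top bar, replicate 1 regions in the middle and replicate 2 regions at the bottom, coloured by the authors' score (log2). The 6 domains of 3R are whole in both replicates, while the 4 of 2R, X and 3L are divided into 2 to 5 regions.

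The combined scores of the domains ran from 0.49 to 3.29 with a median of 1.96, against a median of 1.37 over all 4830 arm regions and of 1.79 over the 864 arm regions of 5 to 10 kb. Scores between 1.5 and 2.5 were found in 209 domains (69.0%), while 8 were under 1 and 11 were over 3. The score exceeded the median of all arm regions in 265 domains (87.5%). None of the domains was among the lowest-scoring 10% of arm regions, whose scores reached 0.32, and neither was any region of 5 to 10 kb. Among the highest-scoring 10% of arm regions there were 30 domains (9.90%), a share near the background of 10%. The highest-scoring domain ranked 76 among all arm regions by score, and 5.07 was the highest score of the arm regions.

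Within the domains the score showed almost no steady rise or fall with width. Spearman's rho was 0.025 across the 303 combined domains, -0.050 across the 209 of replicate 1 and 0.039 across the 228 of replicate 2. Across the combined arm regions under 10 kb it was 0.570. The domains were picked by width, which cuts their range at 10 kb, so the coefficients are not like for like. By width class, the median score was 1.87 from 10 to 12 kb, 2.03 from 12 to 15 kb, 2.05 from 15 to 20 kb and 1.77 at 20 kb or more. These medians rose and then fell, which a single rank coefficient does not show. Regions share their libraries and are not replicates, so the coefficients are descriptions.

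The 5 strongest domains were between 10.1 and 15.1 kb wide and were whole in both replicates. The highest combined score, 3.29, belonged to a 12.7 kb domain on 2R at 7771902 to 7784564, which scored 3.29 in each replicate. Next were a 13.0 kb domain on 3R at 7039106 to 7052136 with 3.25 (3.27 and 3.23 in replicates 1 and 2) and a 10.9 kb domain on X at 1368254 to 1379164 with 3.22 (3.20 and 3.29). A 10.1 kb domain on 3L at 3191304 to 3201450 scored 3.16 (3.18 and 3.22), although its replicate regions were 9.70 and 9.56 kb wide and so fell under the cutoff. The fifth, on X at 11480128 to 11495240, was 15.1 kb wide and scored 3.15 (3.17 in each replicate).

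The weakest domains were mostly divided. The lowest score, 0.49, was that of a 10.6 kb domain on 2L at 181902 to 192468, which was held as 3 regions in each replicate, with scores from 0.46 to 0.63 in replicate 1 and from 0.51 to 0.59 in replicate 2. It was followed only 55 bp later by a 12.5 kb domain at 192524 to 205040 with a score of 0.63. Replicate 1 held this neighbour as 4 regions with scores from 0.47 to 0.67, 1 of which also reached back into the first domain, and replicate 2 held it as a single region with 0.69. Together they formed 23.1 kb of weak signal near the left end of the arm.

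Of the other 3 weakest, a 10.9 kb domain on 2L at 18637624 to 18648474 scored 0.53 and was whole in both replicates (0.58 and 0.53), with replicate widths of 9.57 and 9.18 kb. A 14.2 kb domain on 2L at 12471610 to 12485856 scored 0.68. It was held as 2 regions in replicate 1 (0.41 and 0.97) and as 4 in replicate 2 (0.35, 0.54, 0.33 and 0.98), and its right part was the stronger in both. A 10.8 kb domain on 3R at 19030650 to 19041428 scored 0.84 and was cut in 2 in replicate 1 alone (0.91 and 0.57, against 0.86 in replicate 2). Of the 5 weakest domains, 4 lay on 2L.

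**Figure D3:**
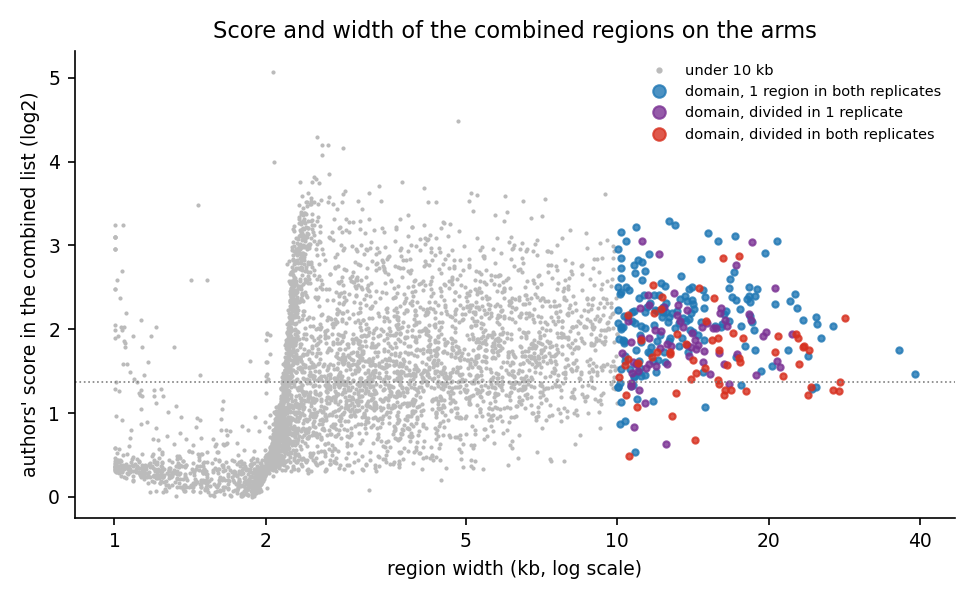
Authors' score (log2) against width (kb, log scale) for the 4830 combined regions on the arms, with regions under 10 kb in grey and the 303 domains coloured by whether the replicates hold them whole or divided; the dotted line is the arm median of 1.37. Domains range from 0.49 to 3.29 in score, and those divided in both replicates sit lower, with a median of 1.66 against 2.11 for those whole in both. A divided domain spans its weak pieces as well as its strong ones.

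Every domain was found in both replicates, but many were not held in a single piece. All 303 were overlapped by an enriched region of replicate 1 and of replicate 2, against 88.2% of all combined arm regions and 99.9% of those of 5 to 10 kb. The combined list is taken to rest on the same libraries, so this is no independent check. Replicate 1 held 195 domains as a single region, 84 as 2, 17 as 3 and 7 as 4 regions. Replicate 2 held 221 as a single region, 62 as 2, 15 as 3, 3 as 4 and 2 as 5 regions. Thus 108 domains (35.6%) were divided in replicate 1 and 82 (27.1%) in replicate 2, a mean of 31.4% ± 6.07 (SD, n = 2). The background over all combined arm regions was 6.31% in replicate 1 and 4.91% in replicate 2. A wide region offers more bases at which it can be cut, and no region under 3 kb was divided, so nothing is read from the higher share in domains.

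Per base, domains were cut about as often as the next narrower class. There were 31.4 gaps per Mb of domain in replicate 1 and 24.7 in replicate 2. In the regions of 5 to 10 kb there were 31.5 and 22.9 gaps per Mb. In those of 3 to 5 kb there were 5.13 and 5.86 gaps per Mb, where a second piece has little room.

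The replicates partly divided the same domains. Both held 173 domains (57.1%) whole, against 80.4% of all combined arm regions, and both divided 60 (19.8%), against 3.33%. These backgrounds are not like for like. Only 88.2% of all combined arm regions were overlapped in both replicates at all, and those under 3 kb were never divided. Of the regions of 5 to 10 kb, 20.4% were divided in replicate 1 and 15.2% in replicate 2. A further 48 were divided in replicate 1 alone and 22 in replicate 2 alone. Of the 60 divided in both, 44 had the same number of pieces in each. Of the 139 gaps inside domains in replicate 1, 53 (38.1%) overlapped a gap of replicate 2, and of the 109 gaps in replicate 2, 55 (50.5%) overlapped a gap of replicate 1. In 54 of the 60 the strongest piece of replicate 1 overlapped the strongest piece of replicate 2. The strongest piece was mostly also the widest, so overlap by at least 1 bp is a loose measure here.

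Domains whole in both replicates were narrower and scored higher than those divided in both. Their median width was 12.5 kb (quartiles 10.9 and 16.2 kb) and their median combined score 2.11 (quartiles 1.76 and 2.39). For those divided in both, the median width was 15.7 kb (quartiles 12.6 and 18.7 kb) and the median score 1.66 (quartiles 1.36 and 1.90). The quartile ranges of width overlapped widely and those of score in part. A wider domain offers more bases at which it can be cut, and a divided domain spans its weak pieces and uncalled bases. How these enter the combined score is not stated, so nothing is read from either difference. Among the 36 domains of 20 kb or more, 17 were whole in both replicates and 15 were divided in both.

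The gaps themselves were short. Their median was 270 bp in replicate 1 (quartiles 81.5 and 887 bp) and 477 bp in replicate 2 (quartiles 181 and 943 bp). Gaps under 500 bp made up 64.7% of those in replicate 1 and 52.3% of those in replicate 2. The longest were 4149 and 5450 bp.

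Inside a divided domain the pieces were of unequal strength. The strongest piece exceeded the weakest by a median of 0.94 in replicate 1 (quartiles 0.43 and 1.47) and of 1.05 in replicate 2 (quartiles 0.65 and 1.49). The difference was over 1 in 52 of 108 divided domains of replicate 1 and in 43 of 82 of replicate 2, and in 24 of the 60 domains divided in both it was over 1 in each replicate. The strongest pieces had median scores of 1.97 and 2.02 in replicates 1 and 2, near the 2.08 and 2.11 of the domains that the same replicate held whole. The weakest pieces had medians of 1.08 and 0.98, below the medians of 1.46 and 1.497 over all arm regions of the respective lists. Both kinds of piece were picked by their score, so the weakest are low and the strongest high by choice. The weakest were also short, with median widths of 3.25 and 3.41 kb in replicates 1 and 2. Short regions scored low in general, with a median of 0.86 for combined arm regions under 3 kb. The strongest piece was also the widest in 77 of 108 and 64 of 82 divided domains.

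Few of the weakest pieces scored between 0.7 and 1. In replicate 1, 41 of 108 scored between 0.3 and 0.7, only 9 lay between 0.7 and 1, and 37 lay between 1 and 1.6. In replicate 2 the same bands held 32, 8 and 31 of 82. Weakest pieces under a score of 1 were short, with median widths of 2.21 kb in replicate 1 and 2.12 kb in replicate 2, while those at 1 or more had medians of 4.99 and 5.05 kb. The former were found in 53 domains of replicate 1 and 41 of replicate 2, and the latter in 55 and 41. Narrower regions scored lower in general, with a Spearman's rho of 0.570 between score and width across combined arm regions under 10 kb. The bands are of unequal width, and they and the limit of 1 were chosen after the values were seen. Whether the weakest pieces form separate kinds was not tested.

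The largest steps seen in both replicates were found in 3 domains, the first 2 of which joined a weak left piece to a strong right one. On 3R, the 16.2 kb domain at 4868540 to 4884786 scored 2.84 in the combined list. In replicate 1 it consisted of a 2.23 kb piece with a score of 0.75 and a 13.5 kb piece with 2.96, and in replicate 2 of a 2.14 kb piece with 0.70 and a 13.4 kb piece with 3.06. On 3R, the 11.8 kb domain at 14215266 to 14227100 had a left piece of 3.88 kb with 0.70 and a right piece of 6.29 kb with 2.80 in replicate 1. In replicate 2 the same pieces were 3.89 kb with 0.62 and 6.07 kb with 2.75. The third, on 3L at 9356588 to 9371604, was 15.0 kb wide and rose from left to right in 3 pieces in both replicates, with scores of 1.16, 1.99 and 3.35 in replicate 1 and 0.46, 1.59 and 2.36 in replicate 2. Order along the chromosome says nothing of the direction of transcription, since no gene was assigned.

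**Figure D4:**
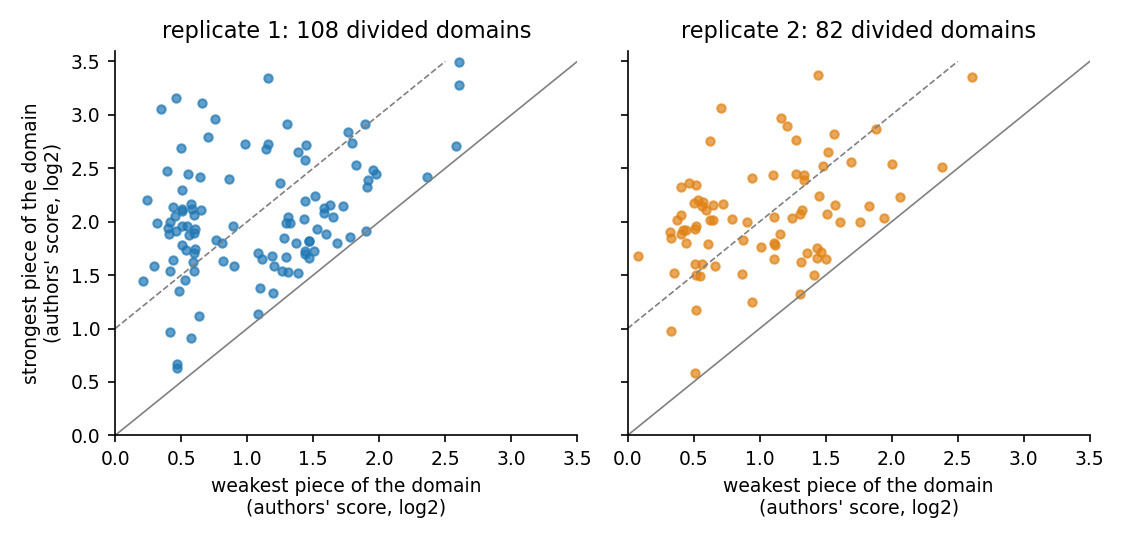
Strongest against weakest piece (authors' score, log2) of each domain that a replicate divides, with 108 domains in replicate 1 and 82 in replicate 2; the solid line marks equal scores and the dashed line a difference of 1. Many points have weakest pieces around 0.5 or above 1, with few points between, and whether these are separate groups was not tested.

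The 5 domains with the most pieces were the X domain of 27.7 kb and the 2R domain of 26.9 kb, described above, and 3 further wide ones. On 2R, the 24.2 kb domain at 3854358 to 3878600 scored 1.31, with replicate 1 pieces of 1.31, 0.60 and 1.74 and replicate 2 pieces of 1.36, 0.56, 0.62 and 2.15. On 3L, the 24.0 kb domain at 1773964 to 1797954 scored 1.22, with pieces of 0.68, 0.59, 0.63 and 1.90 in replicate 1 and of 0.90, 0.57 and 1.61 in replicate 2. In both of these the last piece was the strongest in each replicate. On 3L, the 20.6 kb domain at 13986276 to 14006906 scored 1.73, with pieces of 2.69, 0.72, 1.99 and 0.50 in replicate 1 and of 1.92, 0.42 and 0.63 in replicate 2, and here the first piece was the strongest.

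Despite the cuts, nearly all domain bases were called in both replicates. Of the 4.42 Mb, 92.5% lay in an enriched region of both, 2.06% in replicate 1 alone, 2.75% in replicate 2 alone and 2.68% in neither. The same share was 89.4% in regions of 5 to 10 kb and 80.1% in regions under 3 kb. The covered share of a domain had a median of 97.9% in replicate 1 and 98.1% in replicate 2. At least 90% of the bases were called in both replicates in 219 domains, and under 70% in 8.

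The least covered domain lay on 2L at 21515876 to 21532410. It was 16.5 kb wide and scored 1.57, yet regions of replicate 1 covered 40.0% of it and those of replicate 2 36.3%. Only 18.6% of its bases were called in both replicates. Replicate 1 held it as 2 regions with scores of 1.38 and 1.52, and replicate 2 as 3 regions with scores of 1.08, 0.94 and 1.25. In this domain 42.3% of the bases were called in the combined list alone. The next lowest shares in both replicates were 59.1% in the weakest domain of 2L described above and 62.5% in a 10.4 kb domain on 3R at 12908346 to 12918698. The latter was a single region in each replicate and so is counted as whole.

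For the 173 domains whole in both replicates the edges and scores could be compared directly. The starts differed by a median of 45 bp and the ends by a median of 56 bp. Starts within 100 bp were found for 117 and ends within 100 bp for 116, and the largest differences were 2500 and 1945 bp. Across these domains, which share their 2 libraries, the replicate scores had a Pearson correlation of 0.991 and a Spearman correlation of 0.988.

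Because of the cuts and shifts of edges, a domain of the combined list was not always 10 kb wide in a replicate. A single region of at least 10 kb was present in both replicates for 186 domains (61.4%), in replicate 1 alone for 22, in replicate 2 alone for 41 and in neither for 54 (17.8%). Of these 54, 33 were divided in both replicates and 17 were whole in both but under 10 kb wide in each. They had a median width of 11.1 kb, and the widest was the 24.2 kb domain of 2R with the many pieces. In the other direction, all 209 wide regions of replicate 1 and all 228 of replicate 2 overlapped a combined domain.

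Domains were densest on 3R. The combined list held 89 domains on 3R, 64 on 3L, 54 on 2L, 53 on X, 40 on 2R and 3 on chromosome 4. Per Mb this was 3.19 on 3R, 2.61 on 3L, 2.36 on X, 2.35 on 2L, 2.22 on chromosome 4 and 1.89 on 2R. In the replicate lists the density was 2.56 ± 0.025 per Mb on 3R, 1.75 ± 0.115 on 3L, 1.61 ± 0.189 on X, 1.54 ± 0.154 on 2L and 1.47 in both replicates on 2R (SD, n = 2). The lead of 3R over each of the other large arms exceeded the replicate SD. The order of 2L, 3L and X did not stand out from it as clearly, since the values of 2L and X differed by less than their SD. This SD shows only how closely the replicate lists agreed. No test is given, because arms are not replicates.

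The order was not that of enriched regions in general. On 2R there were 48.1 enriched regions of any width per Mb in the combined list, the most of the 6 arms, but only 3.93% of them were domains. On 3R there were 37.3 per Mb, the fewest in that list, and 8.56% were domains. Domains made up 29.0% of the enriched bases of 3R and 15.5% of those of 2R. In the replicates the shares of enriched bases were 24.7% ± 0.008 and 11.9% ± 0.169 (SD, n = 2). The gap exceeded this SD, which shows only how closely the replicate lists agreed and not how arms vary. At a minimum width of 8 kb, however, the density on 2R was 4.21 per Mb, second only to the 4.73 of 3R among the large arms, and at 15 kb it was 0.66 per Mb, just above the 0.65 of 2L. The low place of 2R therefore depended on the cutoff, while 3R led the large arms at all 3 widths.

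**Figure D5:**
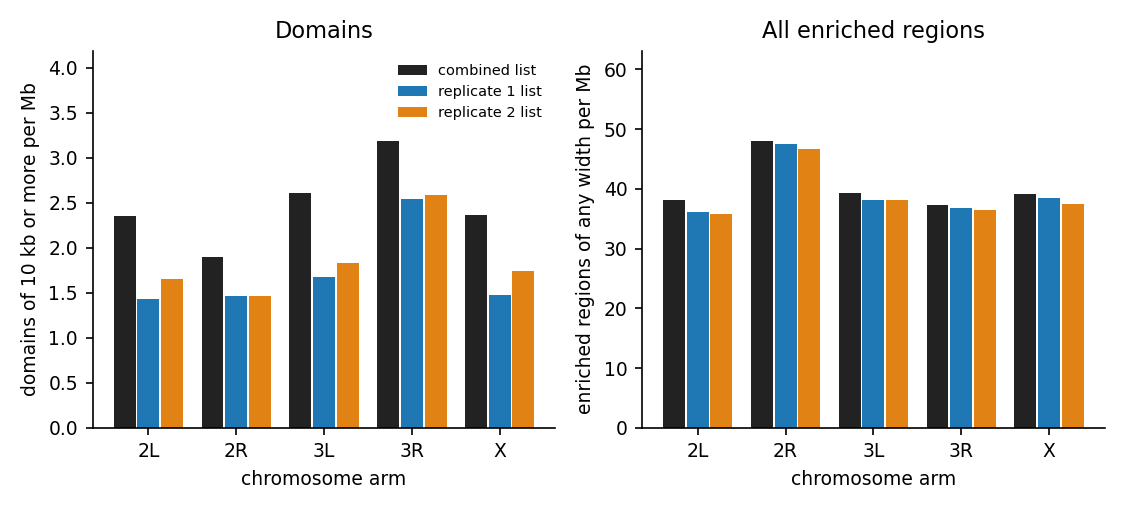
Domains of at least 10 kb per Mb (left) and enriched regions of any width per Mb (right) on the 5 large arms in the combined list and in each replicate list. 3R has the most domains per Mb in all 3 lists, at 3.19, 2.54 and 2.58, while 2R has the most regions of any width.

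The share of divided domains varied between the arms and also between the replicates of an arm. On 3R, 55 of 89 domains were whole in both replicates, and 26.97% were divided in replicate 1 and 23.6% in replicate 2. On 2R the divided shares were 47.5% and 30.0% of 40 domains, on 3L 40.6% and 34.4% of 64, on X 39.6% and 26.4% of 53 and on 2L 29.6% and 24.1% of 54. Lowest of the large arms in both replicates was 3R, though close to 2L. In replicate 2 these arms ran only from 23.6% to 34.4%, and the shares of 2R and X differed widely between replicates. Of the domains of 20 kb or more, 8 of 13 on 3R were whole in both replicates, 2 of 2 on 2L, 3 of 4 on X, 2 of 9 on 2R and 2 of 8 on 3L. The 2R count of such wide domains fell from 9 in the combined list to 2 in replicate 1 and 3 in replicate 2. It also fell from 8 to 2 and 4 on 3L and from 13 to 8 and 9 on 3R. On X it fell from 4 to 3 in each replicate, and on 2L it stayed at 2. Median domain scores in the combined list ran from 1.90 on 3L to 2.11 on X among the large arms.

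Chromosome 4, the small dot chromosome that is rich in heterochromatin proteins yet carries active genes, held 3 domains. At 674972 to 685660 the domain was 10.7 kb wide with a combined score of 1.48, and it was held as 3 regions in replicate 1 (0.65, 2.11 and 1.25) and as a single region in replicate 2 (1.56). At 922986 to 935954 it was 13.0 kb wide with a score of 2.43, held as 2 regions in replicate 1 (2.73 and 1.79) and whole in replicate 2 (2.54). At 1045384 to 1056198 it was 10.8 kb wide with a score of 2.21 and whole in both replicates (2.26 in each), but it spanned only 9.98 kb in replicate 1. By the width rule replicate 1 therefore had 0 domains on this chromosome and replicate 2 had 3.

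Along the arms the number of domains per full window of 1 Mb varied, with a mean of 2.53 and a variance of 3.74. Window counts of all enriched regions are not given here, and whether the spread differs from a random one was not tested. Among 118 full windows of 1 Mb the median number of domains was 2 and the highest was 10, in the window of 3R from 19 to 20 Mb, which held 9 and 8 in replicates 1 and 2. Domains there took up 17.4% of the bases in the combined list, and 15.0% and 14.4% in the replicate lists. Next came 4 windows with 7 domains each, on 2L from 0 to 1 Mb, on 3L from 3 to 4 Mb, and on 3R from 8 to 9 Mb and from 25 to 26 Mb. In 13 full windows there were none in any of the 3 lists, and none of those windows lay on 3R. A domain was assigned to the window that holds its midpoint.

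Neighbouring domains were usually far apart but sometimes nearly touched. The gap between consecutive domains of an arm had a median of 229 kb, with quartiles of 72.8 and 502 kb. In 29 cases it was at most 10 kb, and these joined 56 domains (18.5%) into 27 groups, of which 25 were pairs and the other two were triplets, both on 3R. The share of all enriched regions that form such groups is not given here. The wider triplet ran from 19817560 to 19886606 and held 59.3 kb of domain in 69.0 kb. The closest pair was the weak one on 2L described above, 55 bp apart. The next, on 3R at 19747320 to 19758464 and 19758582 to 19769930, was separated by 117 bp. Its members were 11.1 and 11.3 kb wide, scored 2.04 and 2.20, and were each a single region in both replicates, so that this short break was called in all 3 lists.

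Most domains also had another enriched region close by, which could itself be a domain. The nearest other enriched region of the combined list lay at a median of 1.57 kb, against 2.52 kb over all arm regions and 1.98 kb for regions of 5 to 10 kb. It lay under 500 bp away for 71 domains (23.4%), against 16.7% of all combined arm regions and 18.75% of those of 5 to 10 kb. In 32 domains (10.6%) it lay over 10 kb away, against 18.8% of all combined arm regions. The share was 12.04% for regions of 5 to 10 kb and 23.9% for those under 3 kb.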

How the data were processed

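Bowtie 0.12.7 was used by the authors, per the submitters' processing notes. How regions were called, against which control and at what threshold, and how the replicates were merged into the combined list is not stated in the labels or headers. The build is FlyBase release 5, per the file headers. The authors deposited a score per called region, with no scale named, and it was treated as log2. The reason is that 97, 108 and 90 scores of the combined, replicate 1 and replicate 2 lists lay exactly 1 below some other score of the list (tolerance 1e-10). At a distance of the natural or the common logarithm of 2 this count was 0. The combined list was taken as the authors' pooled value and carries no SD, and each mean ± SD takes in both replicate lists. The labels do not say whether the replicates came from separate cultures, so their spread may be technical.

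Domains were enriched regions of at least 10 kb on the arms. A replicate region was counted as a piece of a domain when at least 1 bp overlapped. Overlap counting was tested on simulated data in which every piece lay inside its region. Pieces that cross an edge or touch neighbouring domains were not simulated. With a single ChIP group and members chosen on these data, no test was run. Domains and rules were chosen with earlier results of these data known. Regions named were the 10 widest, the 5 highest and 5 lowest scoring, the 5 with most pieces, the widest of each arm, all of chromosome 4, 3 on each side of the cutoff and the closest 2 pairs. The least covered domains, largest score steps and window counts were added after the values were seen. Gene-based descriptions were not made, since the gene table is of release 6. Python 3.11.15, numpy 2.4.6, pandas 2.3.3 and matplotlib 3.10.9 were used.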

Additional observations from a re-analysis of the deposited data

How the results depend on the processing

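The number of domains depended on the cutoff, being 490 at a minimum width of 8 kb and 104 at 15 kb, but it stayed within 1.5 times of 303 in either replicate list, with regions under 500 bp apart merged first (370) and with scaffolds and unplaced sequence included (306). Domains covered 3.67% of the arms, against 5.06% at 8 kb, 1.69% at 15 kb, 4.63% after merging and 2.46% to 2.68% with 1 replicate list. The median score of 1.96 was 1.94 at 8 kb and 1.98 at 15 kb. In single replicate lists it was 2.09 to 2.11, on scales that may not be shared. Of the domains, 42.9% were divided in at least 1 replicate. With pieces under 500 bp apart merged first this was 19.8%, at 15 kb 53.8%, and with 1 replicate list 27.1% (without replicate 1) to 35.6%. Bases called in both replicates were 92.5%, and in a single replicate 94.6% to 95.3%. The lead of 3R over 2R, 1.30 domains per Mb, kept its direction under every alternative run. It was 1.08 and 1.11 in replicates 1 and 2, 0.52 at 8 kb and 0.56 at 15 kb. As a percent of the arm it was 1.89 points, and as a percent of enriched bases 13.6 points. This pair of arms was chosen after the values were seen. No paired analysis was possible because no result comes from a test between groups. The alternative on genes spanned was not run. Depth is unknown and its part in the gaps was not tested.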

Other observations

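Outside the arms the combined list held 3 regions of at least 10 kb. The region on 2RHet at 333034 to 343590 was 10.6 kb wide, scored 1.34 and was whole in both replicates, which covered 99.5% and 97.8% of it. On 3LHet, a 12.9 kb region at 591630 to 604514 scored 1.31 and was whole in replicate 1 and cut in 2 in replicate 2. A 10.4 kb region of 3LHet at 1129272 to 1139688 scored 1.55 and was overlapped by a single region in each replicate. These covered only 68.1% and 82.5% of it.

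All regions of the combined list started at an even position and had an odd width in bp, whereas 49.5% and 49.2% of the regions of replicates 1 and 2 started at an even position. Edges of combined domains are thus given in steps of 2 bp, which is small beside the median edge differences of 45 and 56 bp between the replicates.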
